A study of Mus musculus with 20 samples.

Results

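The 10 genes that encode enzymes of serine, mitochondrial one-carbon, proline, asparagine and phosphoenolpyruvate synthesis were examined in mouse islet RNA-seq, out of 28632 genes in the count table. They are Phgdh, Psat1 and Psph (serine), Shmt2, Mthfd2 and Aldh1l2 (mitochondrial one-carbon units), Aldh18a1 and Pycr1 (proline), Asns (asparagine) and Pck2 (phosphoenolpyruvate). They were picked by name as the metabolic arm of the mitochondrial stress response, to be set beside the direction of stress factors such as Ddit3. Because the members were chosen on measured values of these same libraries, their levels between genotypes are given as a description, with SE and without a test.

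These enzymes build amino acids and one-carbon units from glycolytic and mitochondrial precursors. Serine made from 3-phosphoglycerate is cleaved in mitochondria to glycine and a folate-bound one-carbon unit, which is oxidized and exported as formate for nucleotide synthesis. Many of these genes are known targets of Atf4, the transcription factor whose translation rises when the kinases of the integrated stress response phosphorylate eIF2α, and in muscle with defective mitochondrial DNA maintenance the pathway is known to be switched on. In β-cells, Pck2 is known as the mitochondrial enzyme of a phosphoenolpyruvate cycle linked to insulin secretion.

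Islets came from 12-week-old mice and were kept in culture for a day before RNA was taken. The 20 libraries comprised 6 controls (Ctrl, 3 female and 3 male, labelled wild type, a group in which the study pools Ins1-Cre carriers lacking floxed alleles with floxed mice lacking Cre), 4 of β-Mfn1KO (3 female and 1 male), 5 of β-Mfn2KO (2 female and 3 male) and 5 of β-Mfn1/2DKO (2 female and 3 male). Ins1-Cre deletes Mfn1 exon 4, Mfn2 exon 6 or both in β-cells, so the other cells of the islet keep both genes, and all 3 knockout groups carry the Cre. Mfn1 was at 621.4 to 770.4 normalized counts in β-Mfn1KO and at 686.9 to 1062 in β-Mfn1/2DKO, against 1518 to 1807 in Ctrl. Mfn2 was at 1474 to 1688 in β-Mfn2KO and at 2022 to 2131 in β-Mfn1/2DKO, against 3089 to 4373 in Ctrl, so the targeted genes went with the labels.

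A normalized count here is the deposited estimated count of a gene scaled to a common library size. Depth went with genotype, with library totals of 12400687 to 20329064 counts in Ctrl, 15745680 to 16685381 in β-Mfn1KO, 15110046 to 59533407 in β-Mfn2KO and 65533388 to 122947313 in β-Mfn1/2DKO, so depth and combined loss cannot be fully told apart. The summed level of 10 β-cell markers was 6057558 to 9684565 in Ctrl and 2681267 to 3638490 in β-Mfn1/2DKO, with 10 of 10 lower at adjusted p under 0.05. All 6 endothelial markers rose against Ctrl and against β-Mfn2KO, with sums of 5479 to 8166 in Ctrl and 7910 to 12428 in β-Mfn1/2DKO, and 1 of 5 alpha-cell markers rose, with sums that overlapped between the groups. The part of the β-cell, endothelial and alpha-cell differences in the other results was not tested. In bulk islets fewer β-cells and less RNA per β-cell cannot be told apart. The study reported no significant difference in β-cell mass between genotypes, measured in pancreas sections of slightly younger mice. Replicates 4 and 5 of β-Mfn1/2DKO stood apart in the 15 acinar markers, whose sum reached 2499237 there against 15824 to 108615 in Ctrl, and results that rest on these libraries are given without them too.

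None of the 10 members had a higher mean in β-Mfn1/2DKO than in Ctrl. The log2 fold changes ran from -0.56 for Aldh1l2 to -0.01 for Phgdh with a median of -0.22, against a median of 0.06 over all genes. By the rule used for all other genes (adjusted p under 0.05 over the whole table, edgeR quasi-likelihood), 2 of 10 passed, both lower, Shmt2 and Aldh1l2. Of all genes in the fit, 16.5% passed that rule, 9.59% higher and 6.86% lower, and 33.6% did when only genes averaging 100 or more normalized counts were taken. The ranges of β-Mfn1/2DKO and Ctrl overlapped for 10 of 10 members, whereas 10.6% of all genes had ranges that did not overlap. Nothing is read from these counts, since the members were chosen with this contrast known.

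**Figure D1:**
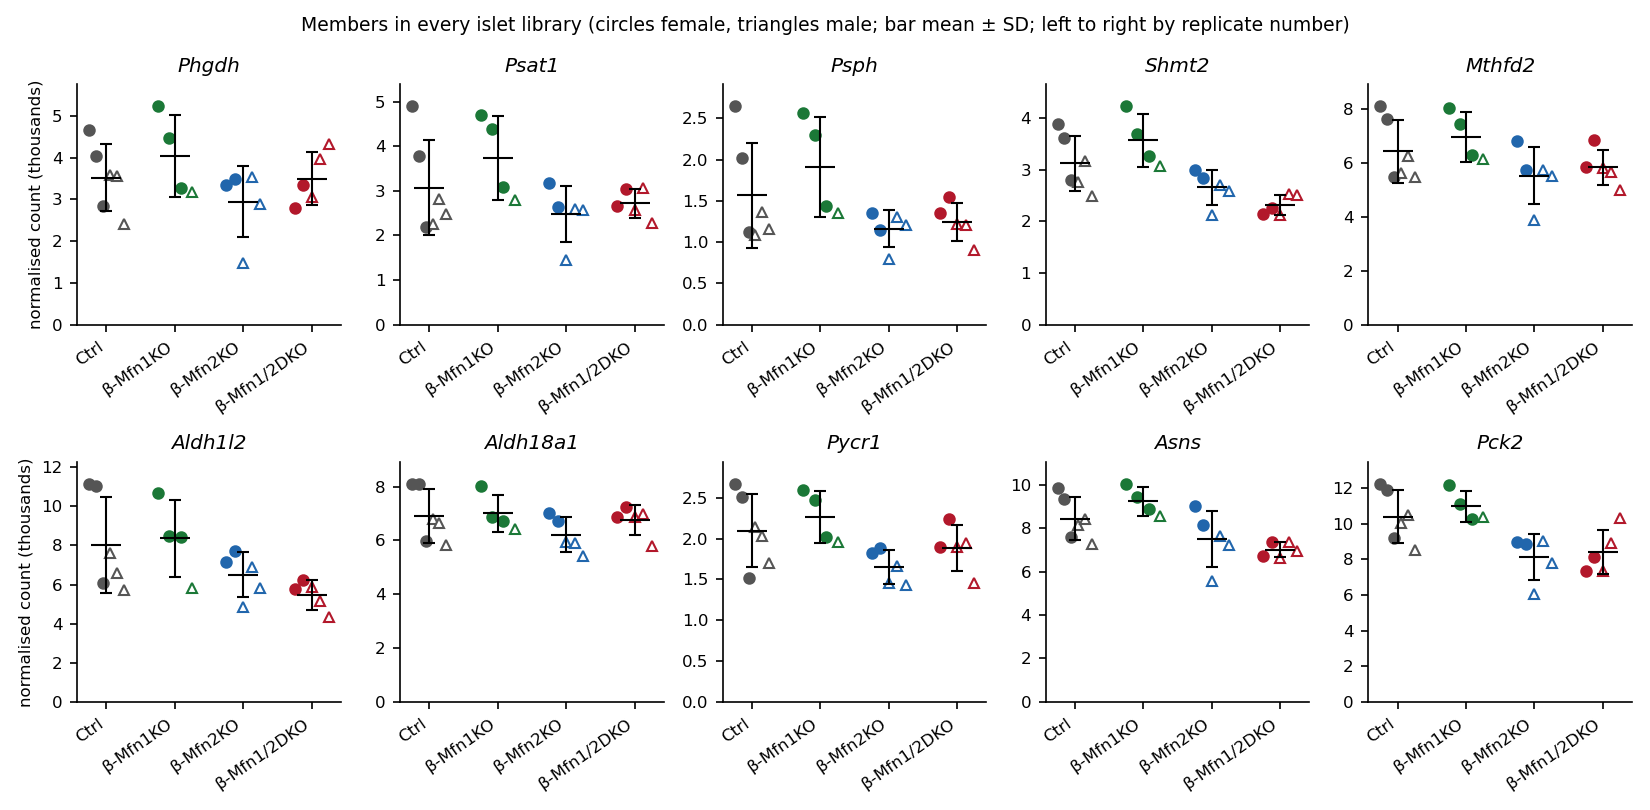
Normalized count (vertical axis, from 0, drawn in units of 1000) of each member in the 6 Ctrl, 4 β-Mfn1KO, 5 β-Mfn2KO and 5 β-Mfn1/2DKO libraries, with circles for females, triangles for males and bars for the mean ± SD. Replicates 1 and 2 of Ctrl and of β-Mfn1KO sit at the top of most panels, replicate 3 of β-Mfn2KO at the bottom, and the β-Mfn1/2DKO points lie within or below the Ctrl range.

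Among the members, Psph and Psat1 of serine synthesis had the largest SD relative to their mean in Ctrl. Phgdh, which commits 3-phosphoglycerate to serine synthesis (chromosome 3, 98313170 to 98339990, GRCm38, minus strand), was measured at 4664, 4032, 2851, 3589, 3564 and 2413 normalized counts in Ctrl replicates 1 to 6. In β-Mfn1/2DKO it was at 2803, 3342, 3050, 3970 and 4329. The means were 3519 ± 806 (SD, n = 6) and 3499 ± 637 (n = 5), a log2 fold change of -0.01 ± 0.19 (SE), and the β-Mfn1/2DKO values lie inside the Ctrl range. Replicates 4 and 5 were the highest of the 5, and without them the log2 fold change was -0.18.

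Psat1, the aminotransferase of the second step (chromosome 19, 15904678 to 15947337, minus strand), had 4896, 3788, 2194, 2252, 2809 and 2478 normalized counts in Ctrl and 2667, 3039, 2567, 3059 and 2282 in β-Mfn1/2DKO. The fitted difference was -0.18 ± 0.20 on the log2 scale, and only Ctrl replicates 1 and 2 exceeded all 5 β-Mfn1/2DKO libraries. Psph, the phosphatase that releases serine (chromosome 5, 129765558 to 129787449, minus strand), had 2646, 2016, 1118, 1091, 1361 and 1158 in Ctrl and 1349, 1547, 1219, 1205 and 906.5 in β-Mfn1/2DKO, a log2 fold change of -0.33 ± 0.21. Psph shares 10.4% of its exonic bases with Cct6a on the other strand, and Cct6a had 345% of the counts of Psph, so part of its reads may not be separable where counting ignored strand.

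Of the mitochondrial one-carbon enzymes, Shmt2 and Aldh1l2 were the members furthest below Ctrl. Shmt2, which splits serine into glycine and a one-carbon unit (chromosome 10, 127517123 to 127522444, minus strand), had 3876, 3615, 2793, 2761, 3174 and 2494 normalized counts in Ctrl. Its β-Mfn1/2DKO values were 2135, 2259, 2123, 2517 and 2515. Replicates 1 to 3 lay below every Ctrl library and replicates 4 and 5 just above the lowest one, with means of 3119 ± 538 and 2310 ± 195 and a log2 fold change of -0.43 ± 0.11.

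Aldh1l2, the mitochondrial 10-formyltetrahydrofolate dehydrogenase (chromosome 10, 83487450 to 83534140, minus strand), was at 11168, 11038, 6090, 7612, 6584 and 5722 in Ctrl, against 5757, 6246, 5866, 5135 and 4338 in β-Mfn1/2DKO. Means of 8035 ± 2460 and 5468 ± 747 gave a log2 fold change of -0.56 ± 0.17. Ctrl replicates 1 and 2 were far above the other Ctrl libraries. Ctrl replicates 4 and 5 were also above every β-Mfn1/2DKO value, and Ctrl replicates 3 and 6 lay within the β-Mfn1/2DKO range. Aldh1l2 shares 14.1% of its exonic bases with D10Wsu102e on the other strand, which had 29.7% of its counts. Mthfd2, the bifunctional dehydrogenase and cyclohydrolase between them (chromosome 6, 83305691 to 83325908, minus strand), ran from 5464 through a median of 5941 to 8097 in Ctrl and from 4990 to 6837 in β-Mfn1/2DKO, with a log2 fold change of -0.14 ± 0.12.

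The proline enzymes were near their Ctrl levels. Aldh18a1, which makes the pyrroline-5-carboxylate precursor from glutamate (chromosome 19, 40550257 to 40588463, minus strand), was at 8112, 8116, 5981, 6781, 6651 and 5828 normalized counts in Ctrl, against 6867, 7246, 6865, 6992 and 5798 in β-Mfn1/2DKO, a log2 fold change of -0.03 ± 0.09. Pycr1, which reduces that precursor to proline in mitochondria (chromosome 11, 120635712 to 120643769, minus strand), ran from 1519 to 2675 in Ctrl and from 1460 to 2246 in β-Mfn1/2DKO, a log2 fold change of -0.15 ± 0.13.

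Asns, asparagine synthetase (chromosome 6, 7675169 to 7693254, minus strand), had 9862, 9356, 7591, 8142, 8452 and 7269 normalized counts in Ctrl and 6731, 7377, 6631, 7364 and 6972 in β-Mfn1/2DKO. Replicates 2 and 4 of β-Mfn1/2DKO were above the lowest Ctrl library and the other 3 below it, and the log2 fold change was -0.27 ± 0.09. Pck2, mitochondrial phosphoenolpyruvate carboxykinase (chromosome 14, 55540266 to 55551242, plus strand), had 12261, 11911, 9196, 10026, 10492 and 8514 in Ctrl. Its β-Mfn1/2DKO values were 7365, 8128, 7366, 8904 and 10351, a log2 fold change of -0.30 ± 0.11 that was -0.43 without replicates 4 and 5.

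These differences depended on the control libraries and on scaling. Without Ctrl replicate 1 the median of the 10 log2 fold changes moved from -0.22 to -0.10, and under total-count scaling it was -0.08, with 3 of 10 members then above Ctrl. With sex in the fit the median was -0.19 and 1 of 10 members was above Ctrl, and without replicates 4 and 5 of β-Mfn1/2DKO it was -0.18, again with 1 above.

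Loss of a single mitofusin left the members near Ctrl as well, on opposite sides of it. All 10 were higher in β-Mfn1KO, by 0.02 for Aldh18a1 to 0.28 for Psat1 and Psph (median 0.12), and all 10 were lower in β-Mfn2KO, by -0.16 for Aldh18a1 to -0.43 for Psph (median -0.28). Both differences are taken against the same 6 Ctrl libraries. In β-Mfn1KO the values of Asns were 10066, 9456, 8876 and 8577, and in β-Mfn2KO they were 9039, 8173, 5562, 7634 and 7230. Replicate 3 of β-Mfn2KO was the lowest of its group for 8 of 10 members, and without it the β-Mfn2KO median was -0.16. Without Ctrl replicate 1 that median was also -0.16, and the β-Mfn1KO median was 0.19. With sex in the fit 8 of 10 members stayed above Ctrl in β-Mfn1KO and 10 of 10 stayed below it in β-Mfn2KO.

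Against β-Mfn2KO, the β-Mfn1/2DKO members were on both sides, from -0.25 for Aldh1l2 to 0.25 for Phgdh with 7 of 10 higher and a median of 0.09. The interaction, which asks whether losing Mfn1 has another effect when Mfn2 is absent, ran from -0.39 for Shmt2 to 0.10 for Aldh18a1.

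The stress factors took another direction in the same β-Mfn1/2DKO libraries. The members were picked to be set beside such factors, with earlier results of these libraries known, so this contrast is a description. Ddit3, which encodes the stress transcription factor CHOP and was named in the choice of the members, was at 3297, 2426, 2155, 1628, 2148 and 3253 normalized counts in Ctrl, against 9601, 13040, 10719, 8497 and 6243 in β-Mfn1/2DKO. Every β-Mfn1/2DKO value was above every Ctrl value, and the log2 fold change was 1.95 ± 0.29. Trib3, a pseudokinase induced by ATF4 and CHOP, ranged over 1799 to 4591 in Ctrl, against 7922 to 13334 in β-Mfn1/2DKO, and rose by 1.94 ± 0.23 on the log2 scale (adjusted p = 2.86e-06). Sesn2, a stress-induced inhibitor of mTORC1, rose by 0.86 ± 0.08 (adjusted p = 9.08e-08) from 6063 to 7184 in Ctrl to 10499 to 12654.

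Besides Ddit3, 11 of the other 24 stress genes rose in β-Mfn1/2DKO and 0 fell, beside 9.59% of all genes higher and 6.86% lower. Among genes averaging 100 or more normalized counts, 33.6% passed in either direction. Ranges did not overlap with Ctrl for 9 of the 24 stress genes, beside 10.6% of all genes. The list has 15 further factors and effectors and 9 genes of the eIF2α kinases and their mitochondrial relay, and its median was 0.26. With a depth class as covariate (libraries over or under 40 on a scale of 1e6 counts) 3 of the 11 passed, Trib3, Sesn2 and Cebpb. The log2 fold changes of all 11 kept their direction in that fit, and 4 were as large or larger, with a median of 0.839 times the value without it. Cebpb (0.78 ± 0.15) and Cebpg (0.50 ± 0.09), which encode dimer partners of ATF4 and CHOP, Ppp1r15a (0.56 ± 0.18), the phosphatase subunit that reverses eIF2α phosphorylation, and Gdf15 (0.80 ± 0.16), a secreted stress cytokine, were among them. Without replicates 4 and 5 Ppp1r15a no longer passed (adjusted p = 0.0775). Atf3 (1.83 ± 0.31, adjusted p = 0.000178), Nupr1 (3.20 ± 0.55, adjusted p = 0.000236) and Fgf21 (2.90 ± 0.60, adjusted p = 0.00145) were highest in replicates 4 and 5, the libraries with the most acinar RNA. Without those libraries the log2 fold change was 1.17 for Atf3, 1.71 for Nupr1 and 1.08 for Fgf21, which no longer passed (adjusted p = 0.0805). With the mean log level of the acinar markers as a covariate the values were 1.37 for Atf3, 2.04 for Nupr1 and 1.57 for Fgf21, and all 3 passed (adjusted p = 0.000356, 8.37e-05 and 0.00142).

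Atf4 itself, the factor that the members are known to answer to, was at 13511 to 20695 in Ctrl and 16241 to 19026 in β-Mfn1/2DKO, a log2 difference of 0.07 ± 0.10 (adjusted p = 0.674). Its paralogue Atf5 differed by 0.10 ± 0.08 (adjusted p = 0.433), and Chac1, a glutathione-degrading enzyme known as an ATF4 target, by 0.10 ± 0.19 (adjusted p = 0.759). Atf4 is known to be controlled mainly by translation, which these counts do not measure. Of the 9 kinase and relay genes 1 rose, Eif2ak4, which encodes GCN2, by 0.22 ± 0.06 (adjusted p = 0.0144, or 0.0799 without replicates 4 and 5), and Oma1, Dele1 and Eif2ak1, the relay from mitochondria to eIF2α, were at -0.04, -0.06 and -0.02.

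**Figure D2:**
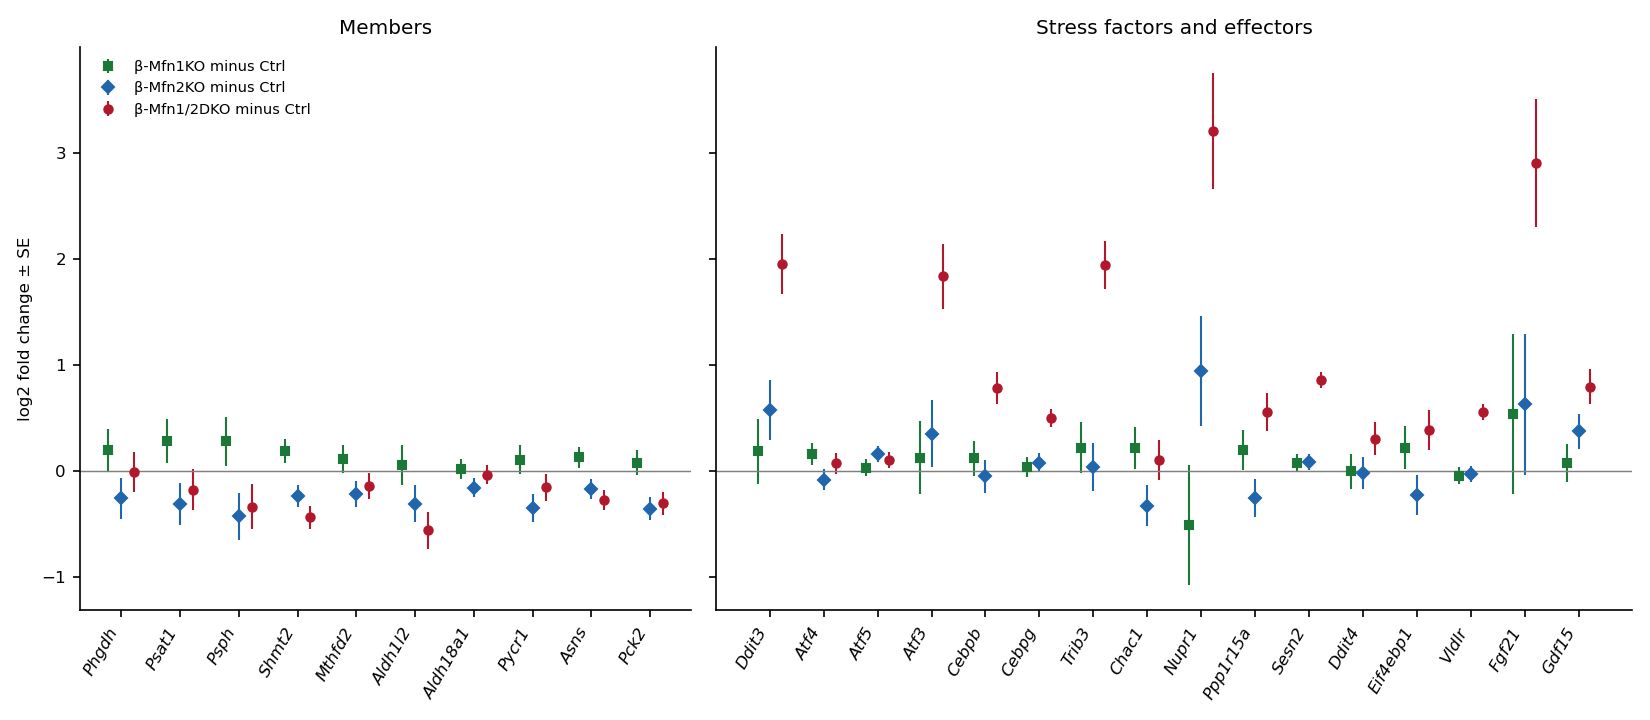
Log2 fold change ± SE against Ctrl (vertical axis, shared) of the 10 members on the left and of 16 stress factors and effectors on the right, in β-Mfn1KO (squares), β-Mfn2KO (diamonds) and β-Mfn1/2DKO (circles). The members stay between -0.56 and 0.28 in all 3 genotypes, while Ddit3, Trib3, Atf3, Nupr1 and Fgf21 lie above 1.8 in β-Mfn1/2DKO and Atf4, Atf5 and Chac1 lie near 0.

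Within genotypes, Ddit3 and the members were high in the same libraries in some groups and not in others. In β-Mfn1KO, Ddit3 was at 3615, 3286, 2409 and 2010 in replicates 1 to 4, and the median deviation of the members from their group mean was 0.24, 0.08, -0.13 and -0.20 on the log2 scale. In β-Mfn1/2DKO, replicate 2 had the highest Ddit3 value and the highest median deviation of the members, 0.14, and replicate 5 the lowest of both, with -0.22. Even in replicate 2, 5 of 10 members were above the Ctrl mean, and in the other replicates 1 to 3 were. Replicate 3 of β-Mfn2KO had 8127 normalized counts of Ddit3, against 2138 to 3504 in the other 4, and was at the same time the lowest of its group for most members. In Ctrl, Ddit3 was highest in replicate 1 (3297) and replicate 6 (3253), and replicate 6 was the lowest of its group for 7 of 10 members. For Atf4, Ctrl replicates 1 and 2 had the highest values, 20695 and 18686 against 13511 to 16073 in the other 4. These 2 replicates also had all 10 members above the group mean.

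Across all 20 libraries the members moved as a set. Pearson's r between members, on log2 normalized counts, ran over the 45 pairs from 0.531 for Aldh18a1 and Pck2 to 0.959 for Psat1 and Mthfd2 with a median of 0.781, and the median was 0.78 on deviations from the genotype means. These points share sex and library composition, so the values are a description. With the mean standardized profile of the members, r was 0.793 for Atf4 and -0.352 for Ddit3 over 20 libraries, and on deviations from the genotype means 0.881 and -0.15. The sign of the last value rested on β-Mfn2KO replicate 3, without which it was 0.327 over 19 libraries, while that of Atf4 was 0.927. Chac1, singled out after its value was seen, had 0.854 and 0.963.

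**Figure D3:**
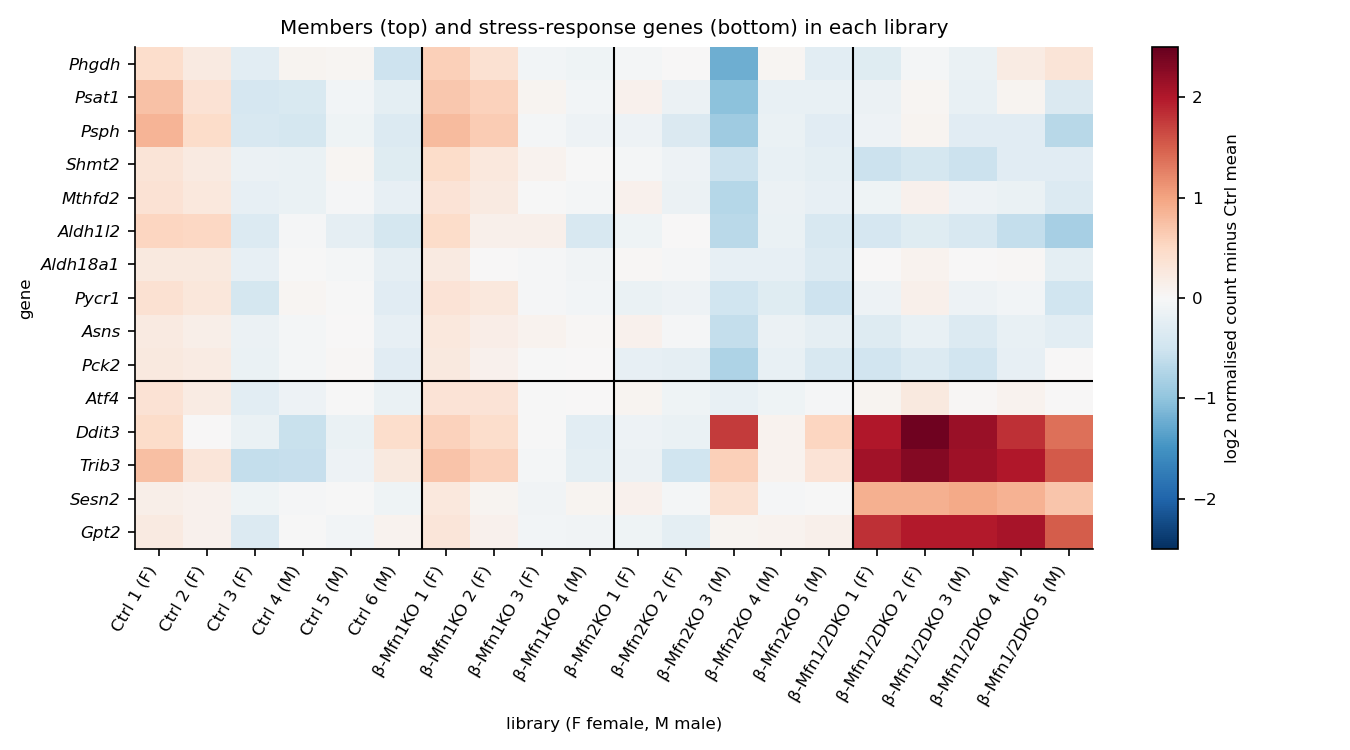
Log2 normalized count minus the Ctrl mean (colour, from -2.5 in blue to 2.5 in red) of the 10 members in the upper rows and of Atf4, Ddit3, Trib3, Sesn2 and Gpt2 in the lower rows, with 1 column per library. The upper rows and Atf4 are warm in Ctrl and β-Mfn1KO replicates 1 and 2 and cool in β-Mfn2KO replicate 3, whereas Ddit3, Trib3, Sesn2 and Gpt2 are warm in all 5 β-Mfn1/2DKO columns.

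Among 12274 genes averaging 100 or more normalized counts, the 8 with the profile most like that of the members over 20 libraries were Nars (r = 0.948), Tars (0.938), Ric8b (0.937), Etv5 (0.918), Mars (0.917), Hax1 (0.901), Srm (0.899) and Scamp4 (0.895). Nars, Tars and Mars encode cytosolic aminoacyl-tRNA synthetases. Their means were lower in β-Mfn1/2DKO than in Ctrl, at 10724 against 12338 for Nars, 4364 against 5162 for Tars and 5885 against 6926 for Mars. Mars and Ddit3 lie on opposite strands and share 68 exonic bases.

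Promoter sequence was searched for the ATF4-type composite element, written TGATGNAA, on both strands in RefSeq windows of 250 bases before to 50 after each start (GRCm38.p6). The element was in 3.97% of 32841 windows, and 9 of the 10 members had a window, Aldh1l2 being the exception. It was found in Asns, Pycr1 and Pck2 and not in the windows of the other 6. The stretches before the start site are shown for these 3 members, which did not rise, and for 3 stress genes that rose, so that the shared letters can be compared. Capitals mark the match, which stands as TGATGNAA or as its reverse complement TTNCATCA.
Asns, chr6:7693210-7693269, minus strand: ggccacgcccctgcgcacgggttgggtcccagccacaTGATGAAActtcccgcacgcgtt
Pycr1, chr11:120643818-120643877, minus strand: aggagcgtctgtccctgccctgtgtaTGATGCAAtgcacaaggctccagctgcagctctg
Pck2, chr14:55540137-55540196, plus strand: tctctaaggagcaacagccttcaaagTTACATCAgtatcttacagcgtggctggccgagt
Atf3, chr1:191183410-191183469, minus strand: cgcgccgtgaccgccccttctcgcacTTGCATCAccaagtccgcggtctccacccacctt
Nupr1, chr7:126625547-126625606, minus strand: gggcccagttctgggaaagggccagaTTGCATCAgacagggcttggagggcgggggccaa
Fgf21, chr7:45615596-45615655, minus strand: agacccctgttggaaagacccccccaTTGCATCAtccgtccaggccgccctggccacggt
The match begins 23 bases before the start in Asns, 103 in Pycr1 and in Pck2, 110 in Atf3 and in Nupr1, and 139 in Fgf21. The stricter spelling TGATGCAA, a subset of the first that 0.895% of windows hold, was in Pycr1 and in the 3 stress genes but not in Asns or Pck2. It was also in Vldlr, which rose, and in Chac1, which was not called. Among 15 stress factors and effectors with a window, 6 held TGATGNAA (Atf3, Chac1, Fgf21, Nupr1, Trib3 and Vldlr), and Ddit3 and Atf4 did not. A match is a description of these letters and not evidence of binding.

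The members differed in level, compared per kilobase of the principal transcript because longer transcripts yield more counts. In Ctrl the order of normalized counts per kilobase was Asns (4189 ± 498), Mthfd2 (3081 ± 555), Pck2 (2249 ± 319), Aldh18a1 (1960 ± 284), Phgdh (1859 ± 426), Shmt2 (1362 ± 235), Aldh1l2 (1333 ± 408), Psat1 (1173 ± 408), Psph (903.1 ± 365) and Pycr1 (719.5 ± 154). From Pck2 down, neighbours in that order differed by less than the larger of their SDs except for the step from Phgdh to Shmt2, and the steps from Asns to Mthfd2 and from Mthfd2 to Pck2 were also larger than that.

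The mitochondrial or stress-linked enzyme was the more abundant form in most of the pairs compared. Per kilobase in Ctrl, Shmt2 was 77.4 times its cytosolic counterpart Shmt1 (17.6 ± 4.99), Aldh1l2 was 73.6 times Aldh1l1 (18.1 ± 10.9), Mthfd2 was 19.9 times Mthfd2l (155 ± 15.0) and Pck2 was 1196 times cytosolic Pck1 (1.88 ± 1.31). Mthfd1, the cytosolic trifunctional enzyme, was at 2140 ± 154 and Mthfd1l, the mitochondrial formate producer, at 568 ± 124. Pycr1 in contrast was at 0.853 times Pycrl (844 ± 90.5), which catalyses the same last step.

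These paralogues are not among the members and were tested. Their lists were also chosen with earlier results of these libraries known, so the adjusted p-values are not independent of that choice. Mthfd1 fell by 0.37 ± 0.09 on the log2 scale (adjusted p = 0.00396), a call that was lost without replicates 4 and 5 of β-Mfn1/2DKO (-0.23, adjusted p = 0.103) and under total-count scaling (-0.23). Aldh1l1 rose by 1.23 ± 0.32 (adjusted p = 0.00895) from 75.76 ± 45.3 to 177.2 ± 59.6, a low level at which the call was lost without those 2 libraries (0.88, adjusted p = 0.103). For Shmt1, Mthfd1l, Mthfd2l, Pycrl and Pck1 the differences were 0.39 ± 0.25, -0.25 ± 0.11, -0.12 ± 0.10, -0.16 ± 0.09 and 0.56 ± 0.58, with adjusted p of 0.343, 0.154, 0.52, 0.298 and 0.598.

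The other 92 genes of these pathways had 31 that changed in β-Mfn1/2DKO against Ctrl, 20 higher and 11 lower. Beside them, 16.5% of all genes changed, and 33.6% of those averaging 100 or more normalized counts. Of the 31, 10 were also past 1.5-fold, beside 1491 of the 4710 genes that changed in the whole table. Those 1491 are 5.21% of all genes in the fit. Of the 92, 20 had ranges that did not overlap with Ctrl, 12 of them higher, beside 10.6% of all genes. Their median log2 fold change was 0.07. The split depended on scaling, with 38 higher and 6 lower under total-count scaling, 18 and 13 with DESeq2 size factors, and 12 and 14 with the authors' normalization factors. Without replicates 4 and 5 of β-Mfn1/2DKO, 17 rose and 6 fell. With the depth class as covariate, 2 of the 31 passed, Gpt2 and Slc3a2. All 31 kept their direction in that fit and 11 were as large or larger, with a median of 0.784 times the log2 fold change without it.

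**Figure D4:**
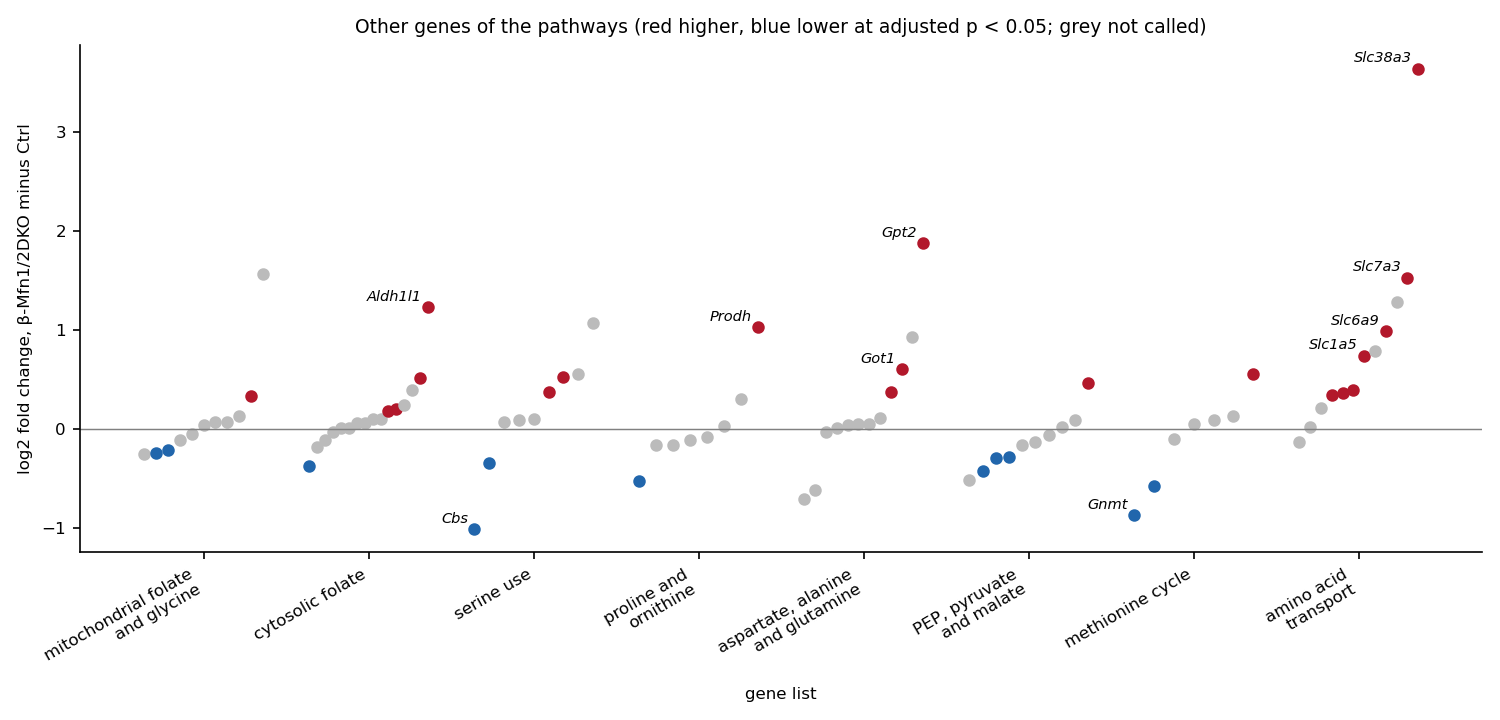
Difference between β-Mfn1/2DKO and Ctrl as a log2 fold change (vertical axis) for the 85 other pathway genes averaging 10 or more normalized counts in any genotype, ordered by value within each list (horizontal axis), with red for higher and blue for lower at adjusted p under 0.05 and grey for genes not called. Gpt2 and the amino acid transporters reach furthest up, Cbs and Gnmt furthest down, and genes past 1.5-fold are named.

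Of 12 genes of aspartate and glutamine metabolism, 3 rose and 0 fell, with a median of 0.05. Gpt2, the mitochondrial alanine aminotransferase (chromosome 8, 85492576 to 85527560), was at 1506, 1379, 1009, 1270, 1230 and 1370 normalized counts in Ctrl, against 4577, 5089, 5104, 5335 and 3648 in β-Mfn1/2DKO. Every β-Mfn1/2DKO value was above every Ctrl value, and Gpt2 rose by 1.88 ± 0.10 on the log2 scale (adjusted p = 5.14e-11). Got1, the cytosolic aspartate aminotransferase, rose by 0.60 ± 0.12 (adjusted p = 0.000904), and Asnsd1, a gene named for its asparagine synthetase domain, by 0.37 ± 0.06 (adjusted p = 8.52e-05). Among the genes not called, Glul, which makes glutamine, and Glud1, which deaminates glutamate, were at 0.05 and 0.04.

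Of 13 amino acid transporters 7 rose and 0 fell, with a median of 0.74 over the list. Slc38a3, a glutamine and asparagine carrier (chromosome 9, 107650634 to 107669530), went from 6.078 to 42.31 normalized counts in Ctrl to 202.9, 138.3, 149.6, 318.2 and 620.5 in β-Mfn1/2DKO and rose by 3.64 ± 0.54 (adjusted p = 4.76e-05), or by 2.86 without replicates 4 and 5. Slc7a3, a cationic amino acid carrier, rose by 1.52 ± 0.29 (adjusted p = 0.000693), and the glycine carrier Slc6a9 rose by 0.99 ± 0.15 (adjusted p = 4.65e-05). Slc3a2 (0.37 ± 0.06) and Slc7a5 (0.39 ± 0.09), the subunits of the large neutral amino acid exchanger, and the serine carrier Slc1a4 (0.34 ± 0.09) rose less. Slc1a5, a glutamine carrier, was at 298.6, 334.7 and 271.7 in replicates 1 to 3 and at 661.2 and 945.8 in replicates 4 and 5, against 252.2 to 330 in Ctrl, so its call (0.74 ± 0.24, adjusted p = 0.0359) rested on the 2 libraries with the most acinar RNA and was gone without them (0.03, adjusted p = 0.944).

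Among the serine-using enzymes 2 of 10 rose and 2 fell. Cbs, which condenses serine with homocysteine at the start of transsulfuration (chromosome 17, 31608894 to 31637238), was at 3826, 3918, 2817, 3848, 3124 and 2198 normalized counts in Ctrl, against 1922, 1956, 1368, 1535 and 1386 in β-Mfn1/2DKO. All 5 values were below the lowest Ctrl value, and Cbs fell by 1.01 ± 0.16 on the log2 scale (adjusted p = 7.1e-05). Sdsl, a serine dehydratase-like gene (0.52 ± 0.10), and Srr, serine racemase (0.37 ± 0.07), rose, and the membrane protein gene Serinc1 (-0.34 ± 0.06) fell.

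In the methionine cycle, Gnmt, the glycine N-methyltransferase that consumes S-adenosylmethionine, fell by 0.87 ± 0.17 (adjusted p = 0.000859) from 150 ± 31.5 to 81.54 ± 16.5, and Amd1, which commits S-adenosylmethionine to polyamines, fell by 0.58 ± 0.07 (adjusted p = 5.45e-06). Ahcy, which clears S-adenosylhomocysteine, rose by 0.55 ± 0.08 (adjusted p = 4.35e-05). Prodh, which starts proline breakdown, rose by 1.02 ± 0.26 (adjusted p = 0.00823) from a low level of 49.18 ± 16.5 to 100.2 ± 20.1, and did not pass without replicates 4 and 5 (0.82, adjusted p = 0.0718).

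Of 12 mitochondrial folate and glycine genes 1 rose (the serine carrier Sfxn3, 0.33 ± 0.08) and 2 fell (the folate carrier Slc25a32, -0.24 ± 0.07, and the shared subunit Dld, -0.21 ± 0.05), and none of these 3 passed without replicates 4 and 5. Of 17 cytosolic folate genes 4 rose, with the folate carrier Slc19a1 at 0.51 ± 0.09 (adjusted p = 0.000276), Mtrr at 0.20 ± 0.06 and Atic at 0.18 ± 0.06 beside Aldh1l1, and 1, Mthfd1, fell. Of 11 genes around phosphoenolpyruvate, pyruvate and malate, Pklr rose (0.46 ± 0.10) and Mdh1 (-0.42 ± 0.06), Pcx (-0.29 ± 0.09) and Eno2 (-0.29 ± 0.07) fell. Pcx and Eno2 did not pass without replicates 4 and 5 (adjusted p = 0.257 and 0.18) or under total-count scaling, where Dld and Slc25a32 were not called either.

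Single loss changed 0 of the 92 pathway genes and 0 of the 24 stress genes by edgeR, where 0.0279% of all genes passed in β-Mfn1KO and 0.0559% in β-Mfn2KO. At an unadjusted p under 0.05 there were 5 pathway and 0 stress genes in β-Mfn1KO and 2 pathway and 2 stress genes in β-Mfn2KO. Of all 28632 genes, 2130 in β-Mfn1KO and 1208 in β-Mfn2KO were under that value. DESeq2 called 0 pathway genes in either single loss. Against β-Mfn2KO, 19 pathway genes were higher and 9 lower in β-Mfn1/2DKO, where 13.0% of all genes passed. The interaction passed for 14 of 92 pathway genes and for 5.92% of all genes, with 7 pathway genes in each direction, among them Gpt2 (1.83, adjusted p = 1.33e-06), Cbs (-1.08, adjusted p = 0.00531), Gnmt (-1.22, adjusted p = 0.00493), Slc6a9 (0.99, adjusted p = 0.00889) and Slc38a3 (4.07, adjusted p = 0.0109). Of 24 stress genes 4 passed, Trib3 (1.68, adjusted p = 0.0042), Nupr1, Sesn2 and Vldlr.

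Sex was not used to choose the members, and all 10 were lower in males, with genotype in the fit. The log2 differences ran from -0.09 for Pck2 to -0.46 for Psph with a median of -0.21. Cell type markers moved with sex in the same fit: all 15 acinar markers were higher in males (median 1.93, 13 at an unadjusted p under 0.05), as were all 7 stellate markers (median 1.18), while the 5 alpha-cell and 3 delta-cell markers were lower (medians -0.35 and -0.36). The part of these in the members' difference was not tested. By edgeR 0 of 10 passed (adjusted p = 0.126 for Aldh1l2 to 0.734 for Pck2), beside 0.126% of all genes. An unadjusted p under 0.05 was found for 8 of 10 members, beside 3045 of 28632 genes. DESeq2 called 2 members, Aldh1l2 (adjusted p = 0.0125) and Mthfd2. Female means of Aldh1l2 were 9432 in Ctrl, 9200 in β-Mfn1KO, 7452 in β-Mfn2KO and 6002 in β-Mfn1/2DKO, and male means were 6639, 5846 (1 mouse), 5861 and 5113. Females were higher in 4 of 4 genotypes for 7 members and in 3 of 4 for Phgdh, Shmt2 and Pck2, whose male mean was higher in β-Mfn1/2DKO. Leaving out each library in turn kept all 10 differences negative, and Aldh1l2 passed without Ctrl replicate 3, a female with low values, where its adjusted p was 0.0209.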

How the data were processed

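RNA of isolated islets was sequenced in 20 libraries. The authors trimmed reads with cutadapt 2.3, checked them with FastQC 0.11.8, aligned them with STAR 2.6.1b and deposited estimated counts per gene from RSEM 1.3.1, with GRCm38 as the build per the labels. Whether counting used strand is not given in the sources used here. A second deposited table holds depth-normalized signal from the authors (DESeq2 1.26.0), used only to recover their normalization factors, which differed between genes within a library.

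Estimated counts were rounded and fitted with edgeR 4.0.16 (R 4.3.3), TMM scaling and the quasi-likelihood test, with 1 coefficient per genotype over all 20 libraries and Benjamini-Hochberg adjustment over 28632 genes. The interaction is the β-Mfn1/2DKO minus β-Mfn2KO difference minus the β-Mfn1KO minus Ctrl difference. The sex fit added sex. The study counts mice, and each library was taken as 1 mouse. No 2 libraries of the same genotype agreed within sampling noise (lowest chi-square per gene 7.05). Library totals were 12400687 to 122947313 counts, and the fits were tested on simulated data. DESeq2 1.42.0, other scalings, a low-count filter, a replicate block, covariates, drawn-down counts and leaving out libraries were alternatives.

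The members, gene lists and tests were chosen with earlier results of these data known. Named genes are the members, the other pathway and stress genes past adjusted p 0.05 and 1.5-fold in β-Mfn1/2DKO against Ctrl, the reported paralogues, Ddit3, Atf4 and Atf5, and the 8 genes most like the members. Others are named as examples after their values were seen. Gene symbols came from a gene name reference, with GENCODE M21 names where it had none. The GENCODE M21 annotation matched 28561 genes, and 71 IDs had no symbol. Of the pathway lists, Gcat, Dmgdh and Bhmt were not analysed here, and some genes of the lists, while counted, are not reported here by name. Identical stretches of 75 bases shared with other genes covered 10.6% of Psph, 6.07% of Aldh1l2, 0.165% of Pck2 and none of the other members. Promoter windows with letters other than A, C, G and T were left out. Python 3 scripts with Matplotlib drew the figures.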

Additional observations from a re-analysis of the deposited data

Results flagged for a closer look

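Outlying values were sought in 144 groups of 4 to 6 libraries by the gap to the nearest library, and 8 were found, where chance alone gives about 1 in 20. Replicate 3 of β-Mfn2KO was the highest of its group for Ddit3 (8127 normalized counts) and Got1 (2100) and the lowest for Prodh (43.07), and it was the lowest for most members without standing apart by this measure. Replicate 5 of β-Mfn1/2DKO was the lowest for Aldh18a1 (5798), and it was the highest for Pck1 (16.2), a gene close to absent. Slc38a3 reached 107.7 in β-Mfn2KO replicate 4, a deep library whose summed acinar markers, 413110, were the highest outside β-Mfn1/2DKO. Gnmt was highest in β-Mfn1KO replicate 2 (192.5), and Pck1 in β-Mfn1KO replicate 3 (4.967).

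The effect of losing Mfn1 differed between islets with and without Mfn2 in 8 of 25 named genes tested by the interaction term, as log2 values with edgeR. Of all genes, 5.92% passed the interaction. Most of the named genes were chosen for a change in β-Mfn1/2DKO against Ctrl, and the interaction uses the same libraries. The 8 of 25 is therefore a description and no separate support. The difference was 1.83 for Gpt2, -1.08 for Cbs, -1.22 for Gnmt, 0.99 for Slc6a9, 4.07 for Slc38a3, 1.68 for Trib3, 2.77 for Nupr1 and 0.69 for Sesn2. Asns was above the Ctrl mean in 4 of 4 β-Mfn1KO libraries and below the β-Mfn2KO mean in 5 of 5 β-Mfn1/2DKO libraries, a difference of -0.22 on the log2 scale. The interaction fitted for it was -0.23 ± 0.14 (SE) and did not pass.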

How the results depend on the processing

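The count of members past the rule in β-Mfn1/2DKO against Ctrl was 2, all lower under every setting that called any. It was 4 with DESeq2, DESeq2 size factors, the authors' normalization factors, a low-count filter, counts drawn down to the smallest library or the replicate block, 1 with total-count scaling and 0 with a depth class as covariate. Leaving out single libraries gave 1 to 4, with 1 without Ctrl replicate 1 or 2 or β-Mfn1/2DKO replicate 1 or 4, and 4 without Ctrl replicate 6. With the depth class, which β-Mfn2KO replicates 4 and 5 alone separate from genotype, 2 pathway genes (Gpt2 and Slc3a2) and 3 stress genes (Trib3, Sesn2 and Cebpb) remained of 31 and 11 against Ctrl, and 16 pathway genes were called against β-Mfn2KO where 28 had been, and 8 in the interaction where 14 had been. Deep libraries alone gave 16 against β-Mfn2KO, and DESeq2 gave 23 in the interaction. Without single libraries the pathway count was 27 to 35 against Ctrl, 22 to 31 against β-Mfn2KO and 10 to 17 in the interaction, the stress count was 10 to 11, and the pathway count of β-Mfn1KO was 0 to 1 (Eno1, without Ctrl replicate 1). The sex difference of members was called for 0, for 2 with DESeq2 and for 0 to 1 without single libraries (Aldh1l2 without Ctrl replicate 3 or β-Mfn1/2DKO replicate 3), an alternative added after seeing the data. The cause of these shifts was not tested. Leaving out libraries from the correlations with Ddit3, Atf4 and Chac1 was added after seeing the data too.

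Same-numbered libraries did not all deviate together, with r over 0.1 in 21 of 27 pairs and a mean r of 0.246 against -0.054 for other numbers. The latter mixes pairs of like and unlike sex. Within a sex, other numbers had a mean r of 0.175, and pairs of like number and sex a median r of 0.317. Since 10 of 19 libraries were closest to their own number, the numbers were not taken as pairs. The replicate block moved the pathway count from 31 to 34 and left the stress count at 11. Among genes that were not called, some changed sign, such as Shmt1 (0.39 to -0.26) and Mthfd1l (-0.25 to 0.03) with the depth class and Mthfd2l (-0.12 to 0.02) under total-count scaling. The medians of the members' log2 fold changes kept their sign against Ctrl in each single or double loss. With the depth class the 31 pathway and 11 stress genes called against Ctrl kept their direction. Low counts limit what can be said of genes such as Pck1 and Fgf21.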
